A study of Mus musculus with 12 samples.

Results

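The BCL2 family decides whether a cell under stress survives or dies, and 10 of its genes were followed in dermal papilla (DP) cells of the mouse hair follicle. They were the survival genes Bcl2, Bcl2l1 and Mcl1, the pore-forming genes Bax and Bak1, and the BH3-only genes Bcl2l11, Bid, Bbc3, Pmaip1 and Bad. A gene was a member when its symbol stood in the tables of both days, and all 10 did, out of 15209 genes at P14, 15334 at P16 and 14986 in both. RNA was sequenced from YFP-positive DP cells sorted from dissociated skin, from 3 control and 3 dMF1/2 mice at P14 and as many at P16, 12 libraries in all. Both days were labelled anagen, the growth phase of the hair cycle. The dMF1/2 mice carried Cor-cre/+ with floxed alleles at both copies of Fgfr1 and of Fgfr2, so that both FGF receptors were targeted in cells that express Corin. Controls were labelled wild type, and the study describes control mice as either Cor-cre/+ with 1 floxed copy of each receptor gene or Cre-negative with both copies floxed. A Cre-dependent YFP reporter was part of both genotypes. YFP-positive cells need Cre, so sorted control cells point to the Cor-cre/+ controls with 1 floxed copy of each receptor gene and not to Cre-negative mice. The control genotype of each library is not stated.

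BCL2-family proteins meet at the outer mitochondrial membrane. The survival proteins BCL2, BCL-XL (from Bcl2l1) and MCL1 hold the pore formers BAX and BAK in check, and the BH3-only proteins either bind the survival proteins or activate the pore formers directly. Once the pore opens, cytochrome c leaves the mitochondrion and caspases are activated. The DP is the mesenchymal niche at the base of the follicle, and it persists through the regression phase while the epithelium around it dies back. BCL2 protein is known to be strongly expressed in the DP.

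For Bcl2, Bcl2l11, Bid and Bax, each of which passed a test in at least 1 comparison, the promoter stretch just upstream of the start is shown, since these are the members whose level is described as changed. Pmaip1, which also passed, is named only. The stretches run from 250 to 31 bases before the RefSeq start (220 bases, assembly GRCm38.p6) and are written 5′ to 3′ on the strand of the gene. They lie at chr1:106714321-106714540 (minus strand) for Bcl2, chr2:128125788-128126007 (plus) for Bcl2l11, chr6:120916855-120917074 (minus) for Bid and chr7:45466929-45467148 (minus) for Bax. Capitals mark matches on either strand to 5 short motifs, which were chosen with these sequences in view.
Bcl2: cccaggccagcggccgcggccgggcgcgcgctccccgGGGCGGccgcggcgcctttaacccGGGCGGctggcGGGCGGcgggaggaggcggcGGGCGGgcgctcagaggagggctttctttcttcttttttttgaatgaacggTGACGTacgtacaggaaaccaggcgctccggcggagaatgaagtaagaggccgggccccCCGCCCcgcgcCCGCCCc
Bcl2l11: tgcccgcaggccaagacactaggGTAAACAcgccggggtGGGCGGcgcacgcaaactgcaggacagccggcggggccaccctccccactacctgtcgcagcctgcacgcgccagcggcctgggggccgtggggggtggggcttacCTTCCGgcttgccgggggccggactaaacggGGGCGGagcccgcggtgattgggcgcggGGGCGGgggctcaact
Bid: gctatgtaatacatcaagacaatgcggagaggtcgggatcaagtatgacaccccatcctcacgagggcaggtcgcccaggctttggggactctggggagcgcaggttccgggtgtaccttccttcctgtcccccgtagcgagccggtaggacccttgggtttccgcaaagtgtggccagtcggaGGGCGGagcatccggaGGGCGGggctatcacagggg
Bax: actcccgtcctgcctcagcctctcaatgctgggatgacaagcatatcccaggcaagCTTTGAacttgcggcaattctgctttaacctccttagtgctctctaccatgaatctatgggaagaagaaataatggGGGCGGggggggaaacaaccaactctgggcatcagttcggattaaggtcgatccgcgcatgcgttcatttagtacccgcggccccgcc
The GC box letters GGGCGG matched 6 times for Bcl2, 3 times for Bcl2l11, 2 times for Bid and 1 time for Bax, and 28.5% of 32851 promoter stretches of the same length held at least 1 such match. Bcl2 also held the cAMP response element core TGACGT, 107 bases before the start, which 5.14% of the stretches held. Bcl2l11 held the FOXO letters GTAAACA (2.81% of stretches) and the ETS letters CGGAAG on the opposite strand (10.8%). Bax held the TCF/LEF letters CTTTGA (12.6%). The stretch of Bid held GC boxes and none of the other letters. These are matches of letters and not measured binding.

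The 12 libraries held 19302358 to 29860750 reads, and all 16 DP markers, Corin among them, were above 0 in every group. Summed over markers of other cells, the normalized reads were 317 to 1009 for 11 keratinocyte genes, 514 to 903 for 7 melanocyte genes, 582 to 1416 for 7 endothelial genes and 72.7 to 353 for 5 immune genes, against 52754 to 168032 for the DP markers. The sums were 17696 to 49801 for 7 dermal sheath and smooth muscle genes and 2617920 to 6792520 for 8 dermal fibroblast genes, Col1a1 and Pdgfra among them, which are also known in DP cells, so these lists do not separate the DP from the dermis around it. The P14 replicate 1 libraries stood apart in both genotypes, with 7.06% and 9.15% of their reads on Col1a1 against 13.1% to 17.7% in the other 10. Libraries of the same replicate number deviated together within a day, so a fit with the replicate number as a block (the replicate block) is given beside a result where it changes a call. The counts span whole genes and do not isolate the floxed exons, so they do not check the deletion. Fgfr1 averaged 8885 ± 1119 normalized reads in P14 control and 6731 ± 583 in P14 dMF1/2 libraries, and 10323 ± 2030 and 7264 ± 929 at P16 (SD, n = 3 each). Fgfr2 averaged 4783 ± 260 and 4483 ± 766 at P14 and 5079 ± 298 and 5081 ± 838 at P16.

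Per length of exon, Mcl1 was by far the most abundant member and Pmaip1 the least. On the scaling shared by the 12 libraries, Mcl1 ran from 1718 to 3013 normalized reads per kb of exon and Bcl2 from 135 to 561. Bax ran from 152 to 273 reads per kb, Bad from 116 to 195, Bak1 from 102 to 169, Bcl2l1 from 96.4 to 137 and Bbc3 from 71.3 to 140. Bcl2l11 ran from 51.4 to 124 reads per kb, Bid from 17 to 64.7 and Pmaip1 from 14.4 to 71.5. The rank of Mcl1 above Bcl2, of Bax above Bad, of Bak1 above Bcl2l1 and of Bcl2l11 above Bid held in all 12 libraries. Neighbours that did not separate in every library were Bcl2 over Bax (above in 7 of 12), Bad over Bak1 (7), Bcl2l1 over Bbc3 (9), Bbc3 over Bcl2l11 (10) and Bid over Pmaip1 (10). The members also differed in how far they ranged. The highest library exceeded the lowest 4.98 times for Pmaip1, 4.17 times for Bcl2 and 3.80 times for Bid, but only 1.42 times for Bcl2l1 and 1.67 times for Bak1.

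**Figure D1:**
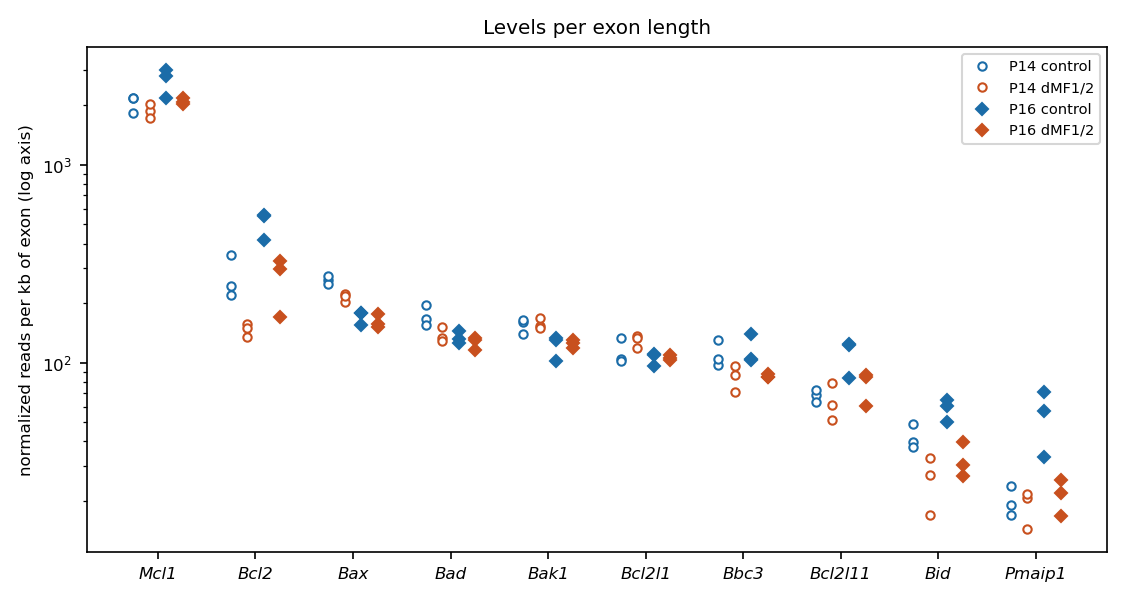
Normalized reads per kb of exon (log axis) for the 10 members, ordered by their mean, with 1 point for each of the 12 libraries (open circles P14, filled diamonds P16, blue control, orange dMF1/2). Mcl1 lies at 1718 to 3013 reads per kb, above every other member in every library, and Pmaip1 reaches as low as 14.4.

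The first question was whether the survival genes differed when Fgfr1 and Fgfr2 were targeted in the DP. Bcl2 (chr1:106538178-106714274, minus strand) was lower in dMF1/2 libraries on both days, but none of Bcl2, Bcl2l1 and Mcl1 passed limma's test on either day. At P14, Bcl2 had 2210, 1987 and 3164 normalized reads in the control libraries and 1424, 1221 and 1352 in the dMF1/2 libraries. At P16 it had 5112, 3875 and 5197 in control and 3063, 1580 and 2777 in dMF1/2 libraries. On each day every dMF1/2 library lay below every control library, and each of the 3 same-numbered pairs was lower in the mutant. The log2 fold change was -0.85 at P14 (SE 0.17, limma's adjusted p = 0.255) and -0.98 at P16 (SE 0.24, adjusted p = 0.0641), that is 55.3% and 50.7% of the control level. With the replicate block the same differences passed, at an adjusted p of 0.0175 at P14 and 0.0035 at P16, and with DESeq2 (0.00213 and 0.00132), but not with edgeR (0.245 and 0.0651). The exact permutation test of 3 against 3 gave p = 0.1 on both days, the smallest it can give. Without the P14 replicate 1 libraries, the P14 difference was -0.96 (adjusted p = 0.362). In sorted cells sequenced in bulk, fewer cells that express Bcl2 and less Bcl2 RNA per cell cannot be told apart.

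Mcl1 (chr3:95658788-95663176, plus strand), a short-lived survival protein, had 6156, 7344 and 7349 normalized reads in P14 control and 6264, 6839 and 5817 in P14 dMF1/2 libraries. At P16 it had 10450, 7584 and 9757 reads in control and 7640, 7083 and 7236 in dMF1/2 libraries. The groups overlapped on both days, with P14 control replicate 1 and P16 control replicate 2 inside the range of the mutants of their day. The log2 fold change was -0.14 at P14 and -0.33 at P16 (SE 0.13, adjusted p = 0.212). Bcl2l1 (chr2:152780668-152831728, minus strand), which encodes BCL-XL, had 606, 473 and 459 reads in P14 control and 619, 542 and 609 in P14 dMF1/2 libraries. At P16 its 6 libraries lay between 449 and 517 reads. Its log2 fold change of 0.01 at P16 had a 95% confidence interval of -0.20 to 0.23, so a difference of the size measured for Bcl2 lay outside it.

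**Figure D2:**
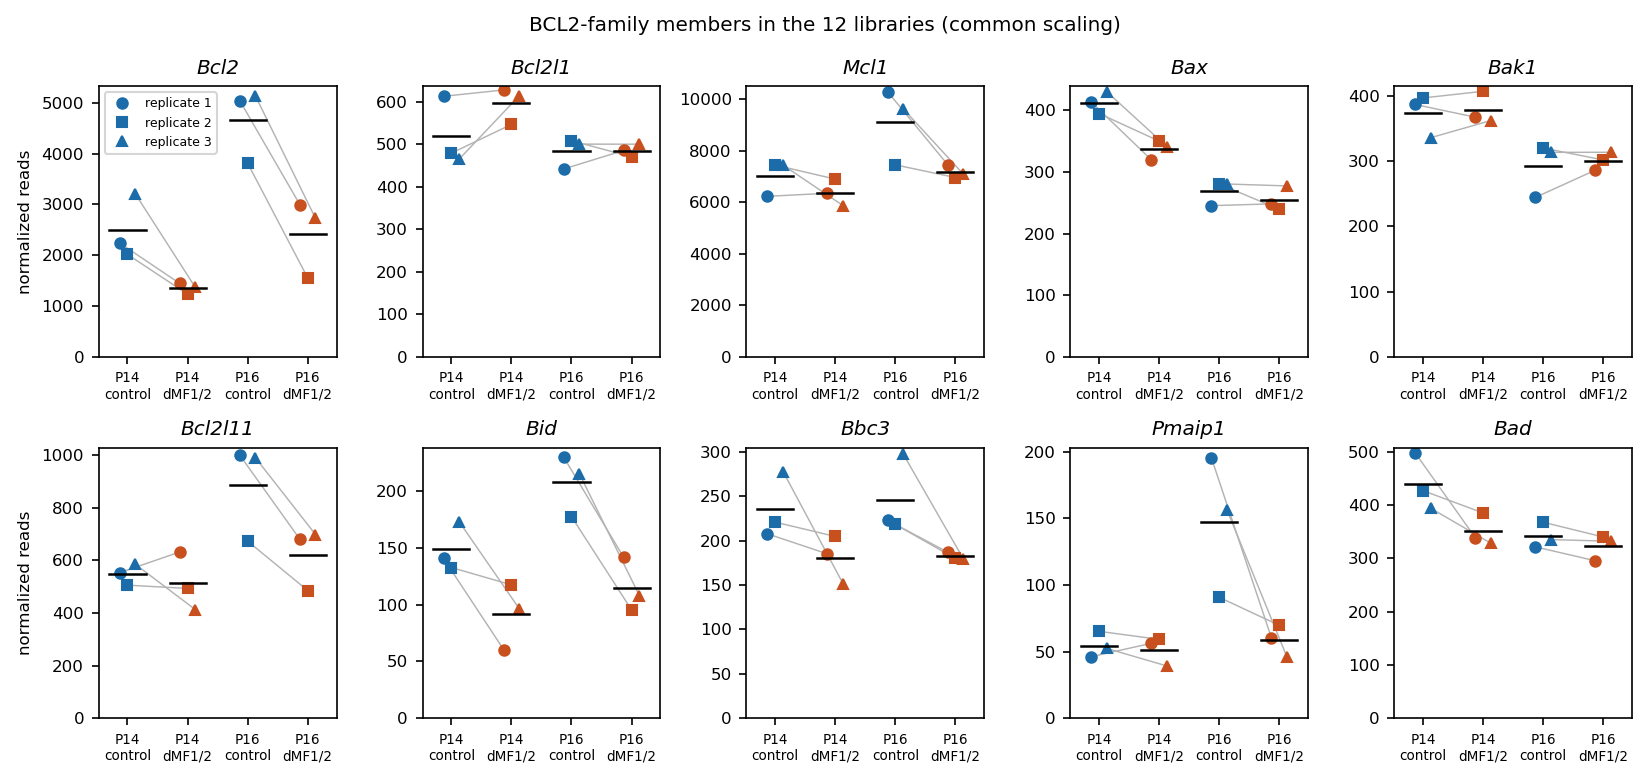
Normalized reads of the 10 members in every library on the scaling shared by the 12 libraries, with a panel for each gene, blue for control and orange for dMF1/2, symbols for the replicate numbers, black bars for the group means (n = 3), and grey lines joining libraries of the same number within a day. For Bcl2 all 3 grey lines fall on both days, for Pmaip1 the P16 control libraries (90.7 to 195 reads) lie above the 9 others, and for Bax both P16 groups lie below both P14 groups.

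The pore formers differed little between genotypes. Bax (chr7:45461695-45466898, minus strand) had 408, 389 and 424 normalized reads in P14 control libraries and 315, 347 and 338 in P14 dMF1/2 libraries, without overlap. At P16 it had 249, 285 and 284 reads in control and 254, 244 and 283 in dMF1/2 libraries, and the groups overlapped. The log2 fold change was -0.29 at P14 (SE 0.09, adjusted p = 0.508) and -0.07 at P16 (adjusted p = 0.818), so neither passed. Bak1 (chr17:27019810-27029009, minus strand) lay between 332 and 403 reads at P14 and between 248 and 326 at P16, with log2 fold changes of 0.03 and 0.05. The confidence interval for Bak1 at P16 was -0.24 to 0.35.

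Among the BH3-only genes, the largest genotype differences were at P16. Bid (chr6:120891930-120916853, minus strand), which links death receptors to the mitochondrion once caspase-8 has cleaved it, was the 1 member that passed the test in the comparison of genotypes. It had 233, 180 and 218 normalized reads in P16 control and 145, 97.0 and 110 in P16 dMF1/2 libraries, and these groups did not overlap. The log2 fold change was -0.85 (SE 0.18, adjusted p = 0.0404), or 55.5% of control. At P14 Bid had 139, 131 and 171 reads in control and 59.7, 116 and 95.5 in dMF1/2 libraries, again without overlap (log2 fold change -0.73, SE 0.26, adjusted p = 0.570). The P16 call was kept with edgeR (adjusted p = 0.0385), DESeq2 (0.002) and the replicate block (0.00834). It was lost without control replicate 1 (adjusted p = 0.106), control replicate 3 (0.134), dMF1/2 replicate 2 (0.101) or dMF1/2 replicate 3 (0.13), and with all 12 libraries in 1 fit (0.0629). Bid shares 628 exon bases with Bcl2l13 on the other strand, whose log2 fold change at P16 was -0.09 (adjusted p = 0.674).

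Pmaip1, on chromosome 18, encodes NOXA, which neutralizes MCL1, and had the largest fold difference of the members. It had 198, 92.3 and 158 normalized reads in P16 control and 61.6, 70.9 and 46.6 in P16 dMF1/2 libraries, with no overlap. At P14 the libraries lay between 38.9 and 64.3 reads in both genotypes. The log2 fold change at P16 was -1.26 (SE 0.29), or 41.7% of control, and the adjusted p was 0.0533. It passed with the replicate block (adjusted p = 0.0377), with edgeR (0.0465) and with DESeq2 (7.21e-04). When single libraries were left out, it passed only without control replicate 2 (limma's adjusted p = 0.0143, otherwise 0.0867 to 0.166). The same-numbered pairs differed by -1.67, -0.38 and -1.74 on the log2 scale. At P14 it was -0.09 (SE 0.24).

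Bcl2l11 (chr2:128126038-128162547, plus strand), which encodes BIM and is lowered by ERK and AKT signalling in many cells, had 1014, 684 and 1002 normalized reads in P16 control and 696, 494 and 711 in P16 dMF1/2 libraries. The groups overlapped, yet the 3 same-numbered pairs differed by -0.54, -0.47 and -0.49 on the log2 scale. The log2 fold change of -0.50 had an SE of 0.19 and an adjusted p of 0.205, and it passed with the replicate block (SE 0.07, adjusted p = 0.00716). At P14 it had 546, 499 and 577 reads in control and 623, 489 and 409 in dMF1/2 libraries (log2 fold change -0.11). Bbc3 (chr7:16309616-16318205, plus strand), the p53 target PUMA, had 226, 222 and 301 reads in P16 control and 191, 183 and 183 in P16 dMF1/2 libraries, and 205, 218 and 274 against 182, 203 and 150 at P14. Its groups did not overlap on either day, but its log2 fold changes of -0.38 at P14 and -0.41 at P16 did not pass (adjusted p = 0.704 and 0.159). Bad (chr19:6941861-6951898, plus strand), which survival kinases switch off by phosphorylation, had 492, 421 and 389 reads in P14 control and 335, 382 and 325 in P14 dMF1/2 libraries, and lay between 302 and 374 reads at P16. Its log2 fold change was -0.32 at P14 (adjusted p = 0.628) and -0.08 at P16.

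Counted together, 0 of the 10 members passed limma at P14, where 0.0525% of all genes did. At an unadjusted p under 0.05 there were 4 members, against 7.32% of all genes, edgeR called 0, and DESeq2 and the replicate block called 1 each, Bcl2. At P16, 1 of 10 passed, against 4.32% of all genes, and 6 had an unadjusted p under 0.05, against 19.0%. With the replicate block 4 of 10 passed at P16 (Pmaip1, Bcl2, Bid and Bcl2l11, all lower), against 10.4% of all genes, and at P14 1 of 10 passed against 1.68%. Members whose dMF1/2 libraries all lay below the control libraries numbered 5 at P14 (Bcl2, Bid, Bax, Bad and Bbc3), where 6.32% of all genes did so, and 4 at P16 (Pmaip1, Bcl2, Bid and Bbc3), where 11.6% did so. No member lay wholly above. The median log2 fold change of the 10 members was -0.21 at P14 and -0.37 at P16, while the median of all genes was close to 0 on both days (0.005 and -0.004). All 5 BH3-only genes had a negative sign on both days, although the sign of Bcl2l11 and Pmaip1 at P14 turned when single libraries were left out.

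The summed level of 10 dissociation stress genes did not overlap between the P16 genotypes. It was 360601 to 503549 normalized reads in P16 control and 321655 to 343031 in P16 dMF1/2 libraries, and 1 of the 10, Atf3, was called lower in dMF1/2 (log2 fold change -0.65, adjusted p = 0.0224), or 3 with the replicate block (Atf3, Jun and Ier2). P16 control replicate 2 had the lowest stress sum of the 3 controls and also the lowest control values of Pmaip1, Bcl2l11, Mcl1, Bcl2, Bid and Bbc3. It had the highest control values of Bak1, Bcl2l1 and Bad, and its Bax value was close to that of control replicate 3. DP markers moved the opposite way, from 52754 to 94040 reads in P16 control to 100921 to 150674 in P16 dMF1/2 libraries, and 4 of the 16 were called higher, or 11 with the replicate block. The shares of all genes called were 4.32% and 10.4%. The 7 endothelial genes had a median log2 fold change of -0.90 and 6 negative signs, none called by limma and 1 (Pecam1, lower) with the replicate block, and their sums overlapped (582 to 1416 reads in control, 728 to 1070 in dMF1/2 libraries). The part of these lists in the members' differences was not tested.

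**Figure D3:**
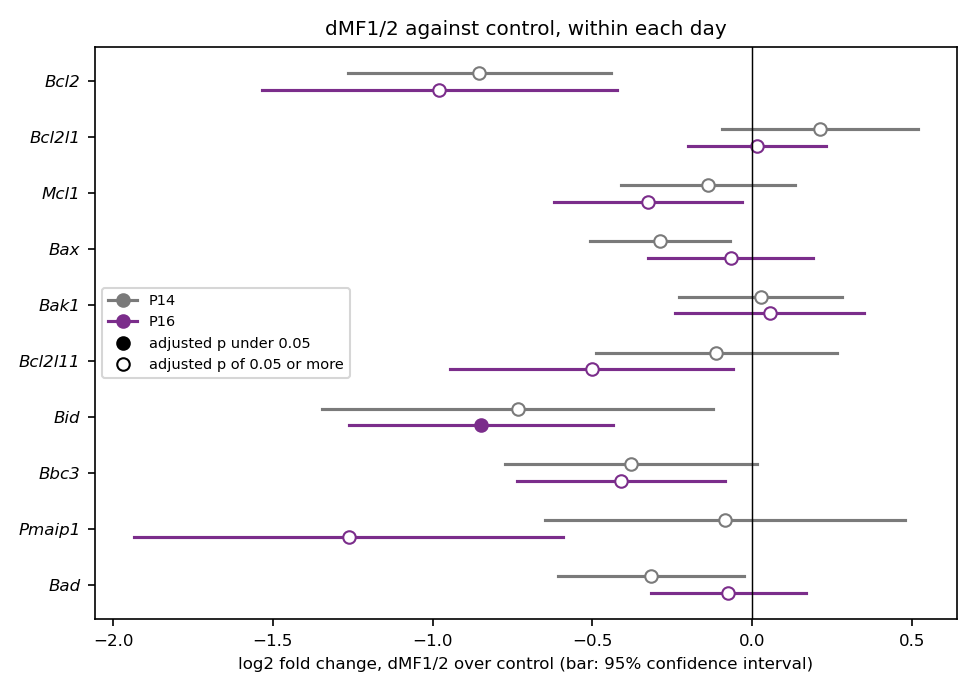
Log2 fold change of dMF1/2 over control for the 10 members at P14 (grey) and P16 (purple), with bars for the 95% confidence interval (limma, 3 against 3 libraries) and filled points for an adjusted p under 0.05. The 1 filled point is Bid at P16 (-0.85), and the intervals that lie wholly below 0 are those of Bcl2, Bax, Bid and Bad at P14 and of Bcl2, Mcl1, Bid, Bcl2l11, Bbc3 and Pmaip1 at P16.

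The next question was how the members changed as anagen went on. In control mice 4 of 10 members changed between P14 and P16, against 14.5% of all genes, and they moved in both directions: Bcl2, Pmaip1 and Bcl2l11 rose and Bax fell. On the scaling shared by the 12 libraries, Bcl2 went from 2238, 2015 and 3206 normalized reads in the P14 controls to 5038, 3810 and 5133 in the P16 controls, so that the lowest P16 library lay above the highest P14 library. That was a log2 fold change of 0.92 (SE 0.24, adjusted p = 0.0269), or 190% of the P14 level. Bax went the other way, from 413, 395 and 430 reads at P14 to 245, 280 and 280 at P16 (log2 fold change -0.62, SE 0.10, adjusted p = 0.0031). The survival gene was thus higher and the pore former lower at P16.

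Pmaip1 rose from 46.2, 65.2 and 52.4 normalized reads in P14 controls to 195, 90.7 and 156 in P16 controls (log2 fold change 1.36, SE 0.28, adjusted p = 0.0120), the largest rise of the members. Bcl2l11 rose from 553, 506 and 585 to 999, 673 and 989 reads (log2 fold change 0.67, SE 0.20, adjusted p = 0.0407). Both groups of libraries were separate in each gene, and in both P16 control replicate 2 was the lowest of the 3. Members that did not pass were Mcl1 (log2 fold change 0.37, adjusted p = 0.0718), Bid (0.48, 0.183), Bad (-0.36, 0.0515), Bak1 (-0.36, 0.0631), Bcl2l1 (-0.09) and Bbc3 (0.06). Bad shares 524 exon bases with Gpr137 on the other strand, which had a log2 fold change of -0.33 (adjusted p = 0.112), and Bak1 shares 614 with Ggnbp1 (-0.50, adjusted p = 0.282).

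The number of control calls depended on single libraries. It was 1 (Bax) without P16 control replicate 1 and 2 (Bax and Pmaip1) without P14 control replicate 1, P14 control replicate 2 or P16 control replicate 3. Bax was called in each of these, whereas Bcl2 had an adjusted p of 0.0831 to 0.0899 in these 4 fits. With the 6 control libraries alone Bcl2l11 was not called (adjusted p = 0.0562), while edgeR also called Bad (0.0422) and DESeq2 also called Bad (0.0314) and Mcl1 (0.0297). The stress sum of the controls was 224585 to 373439 reads at P14 and 360601 to 503549 at P16, with overlap, and 3 of the 10 stress genes were called higher, among them Atf3 (log2 fold change 1.05, adjusted p = 0.0309) and Hspa1a (1.73, 0.0332). The DP marker sum was 118178 to 159087 reads in P14 control and 52754 to 94040 in P16 control libraries, without overlap, with 7 of the 16 called lower and a median log2 fold change of -0.96. Of all genes, 14.5% were called. The 7 endothelial genes had a median of 1.71, with Emcn called higher and Tek lower, while their sum was 968 to 1358 reads at P14 and 582 to 1416 at P16. The part of these lists in the members' changes was not tested.

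In dMF1/2 mice 1 of 10 members changed between the days, Bax, against 5.8% of all genes. Bax went from 320, 350 and 341 normalized reads at P14 to 248, 239 and 277 at P16 (log2 fold change -0.40, SE 0.10, adjusted p = 0.0324). The P16 libraries of both genotypes lay between 239 and 280 reads. Bcl2 went from 1444, 1232 and 1365 to 2994, 1553 and 2725 reads, without overlap (log2 fold change 0.79, SE 0.24, adjusted p = 0.0732). It was called with DESeq2 (adjusted p = 0.01) and with the replicate block (0.0184). Pmaip1 had 56.3, 59.2 and 39.3 reads at P14 and 60.2, 69.7 and 45.7 at P16, a log2 fold change of 0.18 with a confidence interval of -0.44 to 0.80. Bcl2l11 had a log2 fold change of 0.28 (interval -0.15 to 0.71), so the size of the control change lay inside the mutant interval for Bcl2l11 and outside it for Pmaip1. The control change of Pmaip1 had its own interval of 0.74 to 1.98, which overlapped that of dMF1/2 mice. This setting side by side is not a test of a difference between genotypes. Without P14 dMF1/2 replicate 2 or 3 or P16 dMF1/2 replicate 1 no member passed, without P16 dMF1/2 replicate 2 the 1 call was Bcl2, and with the 6 dMF1/2 libraries alone none did (Bax at 0.0907).

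Whether the change over the 2 days differed between genotypes was tested directly, as the interaction. By limma 0 of 10 members passed, as did 0% of all genes, and edgeR and DESeq2 called no member either. At an unadjusted p under 0.05 there was 1 member, against 4.83% of all genes. It was Pmaip1, with a log2 difference of -1.18 (SE 0.40, unadjusted p = 0.0129, adjusted p = 1). The differences of the other 9 lay between -0.39 (Bcl2l11) and 0.24 (Bad). An unlike change in the 2 genotypes was therefore not shown for any member.

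**Figure D4:**
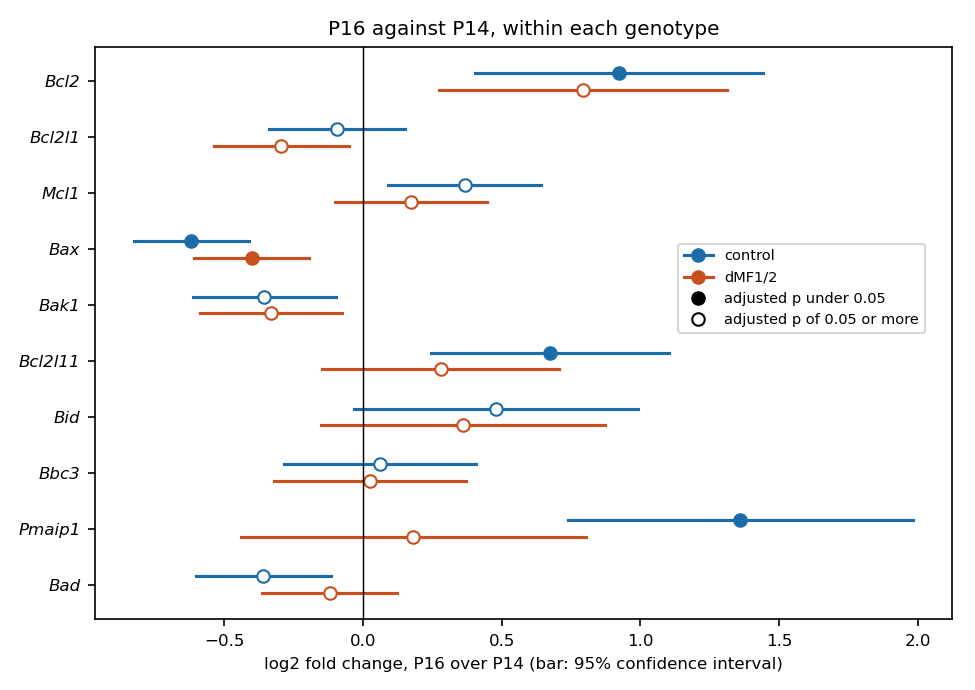
Log2 fold change from P14 to P16 for the 10 members in control (blue) and dMF1/2 mice (orange), with bars for the 95% confidence interval and filled points for an adjusted p under 0.05. Bcl2 lies to the right and Bax to the left of 0 in both genotypes, and Pmaip1 lies at 1.36 in control and 0.18 in dMF1/2 mice.

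The ratio of Bcl2 to Bax within a library is a quantity in which the scaling of the library cancels. These genes had moved in opposite directions over time, so the change of the ratio between the days restates that and is given as a description. The log2 ratio of Bcl2 to Bax was 2.43, 2.35 and 2.90 in P14 control libraries and 2.17, 1.81 and 2.0 in P14 dMF1/2 libraries. At P16 it was 4.36, 3.76 and 4.19 in control and 3.59, 2.69 and 3.29 in dMF1/2 libraries. The 4 groups thus stood in the order P14 dMF1/2, P14 control, P16 dMF1/2 and P16 control by their means of 1.99 ± 0.18, 2.56 ± 0.29, 3.19 ± 0.46 and 4.10 ± 0.31 (SD, n = 3), and the P16 dMF1/2 range reached into that of the P14 controls. The ratio was lower in dMF1/2 by 0.57 at P14 and by 0.91 at P16 on the log2 scale, and higher at P16 by 1.54 in control and by 1.2 in dMF1/2 mice. None of these 4 pairs of groups overlapped. Between genotypes the exact permutation test gave p = 0.1 on each day, the smallest it can give. The ratio of Mcl1 to Bcl2l11, a survival protein and a BH3-only protein it binds, differed by -0.03 at P14 (exact permutation p = 0.8) and by 0.18 at P16 (p = 0.5). It was 0.31 lower at P16 than at P14 in control mice, without overlap (exact permutation p = 0.1), and 0.11 lower in dMF1/2 mice, with overlap (p = 1.0). Ratios of reads between genes of unlike length are read here only between libraries.

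**Figure D5:**
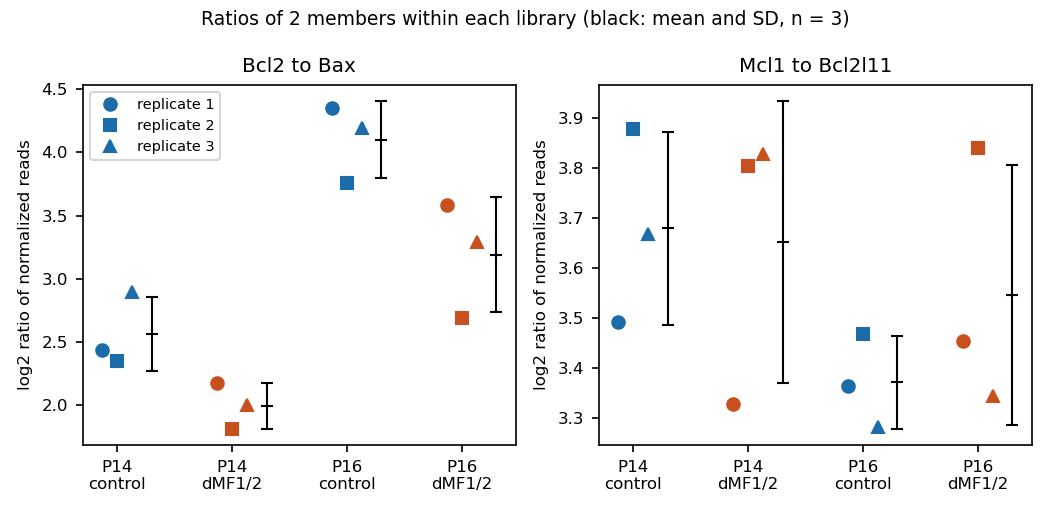
Log2 ratio of normalized reads of Bcl2 to Bax (left) and of Mcl1 to Bcl2l11 (right) in each library, with symbols for the replicate numbers and the mean and SD of each group in black (n = 3, axes do not start at 0). The Bcl2 to Bax ratio is lowest in P14 dMF1/2 (mean 1.99) and highest in P16 control libraries (4.10), and the Mcl1 to Bcl2l11 ratios of the genotypes overlap on both days.

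The genes around the family gave few calls between genotypes and more over time. Of 111 genes in 7 lists, 1 of 95 tested was called at P14 and 3 of 96 (3.12%) at P16, all lower in dMF1/2, against the 0.0525% and 4.32% of all genes given above. With the replicate block 12 of 96 (12.5%) were called at P16, all lower, against 10.4% of all genes. In control mice 15 rose and 4 fell between the days, 19.8% of 96 against 14.5% of all genes. In dMF1/2 mice 6 rose and 2 fell, 8.33% against 5.8%.

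Without the replicate block, the death receptor list held most of the genotype calls. Of its 12 genes tested at P16 2 were called, both lower, and none was higher, where 4.32% of all genes were called. Tnfrsf21, the death receptor DR6, had 2439, 2175 and 2815 normalized reads in P14 control and 925, 929 and 840 in P14 dMF1/2 libraries, a log2 fold change of -1.46 (SE 0.11, adjusted p = 0.0221). At P14 the call was kept without control replicate 2 and lost without any other single library (adjusted p from 0.0591 to 0.266). At P16 it had 2238, 3392 and 3878 against 1790, 947 and 1481 reads (log2 fold change -1.18, adjusted p = 0.0479). Ripk3, the kinase of necroptosis, had 244, 252 and 285 reads in P16 control and 139, 183 and 163 in P16 dMF1/2 libraries (log2 fold change -0.69, SE 0.14, adjusted p = 0.0320). Both genes were separate between genotypes on both days, and Ripk3 missed the threshold at P14 (-0.60, adjusted p = 0.278), although DESeq2 called it (adjusted p = 0.0482). At P16 the call of Tnfrsf21 was kept only without control replicate 1 (otherwise 0.051 to 0.153) and that of Ripk3 only without dMF1/2 replicate 2 (otherwise 0.0559 to 0.119). The median log2 fold change of the list at P16 was -0.12.

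Among 17 tested genes of p53 and its targets, 1 was called at P16, or 3 with the replicate block, all lower (Cdkn1a, Trp53inp1 and Trp53). The shares of all genes called were 4.32% and 10.4%. Trp53inp1, a p53-induced protein, had 1641, 1643 and 1401 normalized reads in P16 control and 1193, 1015 and 855 in P16 dMF1/2 libraries (log2 fold change -0.62, SE 0.13, adjusted p = 0.0404), and the call was kept only without dMF1/2 replicate 1 when single libraries were left out (otherwise 0.0742 to 0.114). It had risen from P14 to P16 in both genotypes, by 1.27 on the log2 scale in control (adjusted p = 6.4e-04) and by 0.65 in dMF1/2 mice (adjusted p = 0.0247). The median of the list at P16 was 0.01. In control mice 3 of the 17 rose and 1 fell, where 14.5% of all genes were called.

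In the 5 other lists no gene was called between genotypes. Of 19 genes of survival kinase and FOXO input, 7 had an unadjusted p under 0.05 at P16, against 19.0% of all genes, and 16 a negative sign (median log2 fold change -0.18), with Sgk1, a kinase that inactivates FOXO factors, at -0.39 (SE 0.10, adjusted p = 0.0668). The replicate block called Pim3, Pim1, Sgk1 and Mapk3 among them. Over time in control mice, Pik3ca, Foxo3 and Sgk1 were among the genes of this list that rose, Sgk1 by 1.0 on the log2 scale (adjusted p = 0.0266). Of 5 inhibitor of apoptosis genes, 2 rose in control and 2 in dMF1/2 mice, Birc6 and Birc3 each time, where 14.5% and 5.8% of all genes were called. Birc3, an inhibitor of apoptosis induced by NF-kB, rose by 0.91 on the log2 scale in control (adjusted p = 0.00742) and by 0.64 in dMF1/2 mice (adjusted p = 0.0497), and it differed by -0.43 between genotypes at P16 (adjusted p = 0.248, with the replicate block 0.0356).

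Over time, 14.5% of all genes were called in control and 5.8% in dMF1/2 mice, beside which the counts of the next 3 lists stand. Of 11 other BCL2-family genes tested, 2 rose in control mice, the mitophagy receptors Bnip3l and Bnip3, the latter by 0.60 (adjusted p = 0.0299). Bnip3 differed by -0.32 between genotypes at P16 (adjusted p = 0.328). Of 14 genes of the apoptosome, caspases and nucleases, 1 fell over time in both genotypes, Aifm1. Endog, a mitochondrial nuclease, had the smallest unadjusted p of that list at P16, where it differed by -0.42 on the log2 scale (adjusted p = 0.186). Of 18 partners that hold or turn over members, 2 rose and 2 fell in control mice. Ywhah, a 14-3-3 protein of the kind that holds phosphorylated BAD in the cytosol, had 2183, 1351 and 1445 normalized reads in P16 control and 999, 1094 and 1007 in P16 dMF1/2 libraries, without overlap (log2 fold change -0.65, SE 0.17, adjusted p = 0.0764, with the replicate block 0.0414). No gene of the 7 lists was called higher in dMF1/2 mice on either day.

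Across the 12 libraries, the genes whose levels followed those of the called members most closely were named by Pearson's r of log2 levels, as a description. For Bcl2 they were Slc12a1 (r = 0.988), Tgfa (0.971) and Klf13 (0.969). For Bax they were Znhit1 (0.970), Fkbp4 (0.963) and Hnrnpa1 (0.959). Those of Bcl2l11 were Fosl2 (0.980), Nfil3 (0.958) and Baz2b (0.958), those of Bid were Derl3 (0.966), Inf2 (0.963) and Cdh23 (0.954), and those of Pmaip1 were Thbs1 (0.938), Egln3 (0.935) and Smim13 (0.933). The 12 points share the 4 groups, so any gene that differs between the groups in a like way has a high r.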

How the data were processed

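RNA of FACS-sorted DP cells was sequenced after depletion of ribosomal RNA with a directional kit. According to the submitters' processing notes, reads were trimmed with Trimmomatic, mapped with TopHat2 to mm10 (GRCm38.p4), counted per gene with HTSeq and normalized with DESeq2. Whether counting used the strand is not given in the sources used here, so reads of members that overlap a gene on the other strand (Bcl2, Bak1, Bid and Bad) may include some of that gene. Bax shares 192 exon bases with Gm45808 on the same strand. In the deposited signal values, the reads of a gene had been scaled by the size factor of their library, over the 6 libraries of a day. The authors also deposited their own comparisons of genotypes, as shrunken log2 fold changes, a Wald score and p-values, raw and adjusted, and none of these were used. All values (100%, within 0.001) were whole multiples of what 1 read is worth in their library, and the whole reads were recovered.

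Tests used limma 3.58.1 in R 4.3.3 with a mean-variance trend, on the log2 of the value plus 1, over genes that averaged at least 10 normalized reads, with Benjamini-Hochberg adjustment over all genes tested and a threshold of 0.05. Fold changes are on the log2(value + 1) scale, which understates the change of low genes. Genotypes were compared within a day in the deposited scaling (13334 genes at P14, 13457 at P16). Changes over time and the interaction used recovered reads of 13415 genes rescaled by median of ratios over the 12 libraries. Alternatives were edgeR 4.0.16 on the recovered reads (7 genes called at P14 and 603 at P16), DESeq2 1.42.0, TMM scaling, pseudocounts of 0.1 and 10, no filter, the replicate block, other sets of libraries and leaving out each library. Chosen after seeing the data were edgeR with the block and leaving out both libraries of a number. The scripts were tested on simulated data.

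Within a day the same replicate number marks the same letter in the column names, and same-numbered libraries deviated together from their group means (correlation over genes 0.573, 0.378 and 0.288 at P14, 0.266, 0.283 and 0.319 at P16). Each library is 1 mouse by the account of the study. The members and the gene lists were chosen with earlier results of these data known. From each list every gene called at P14 or P16 was named, or the gene with the smallest unadjusted p at P16 where none was, and for each called member the 3 genes of highest correlation. Promoters came from RefSeq (9 of 10 members had an entry). Some genes of the survival kinase and FOXO list are not reported here by name.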

Additional observations from a re-analysis of the deposited data

How the results depend on the processing

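Of the member counts, that at P14 (0) became 1 with DESeq2, the replicate block and edgeR with the block, Bcl2 each time, and stayed 0 under the other alternatives. The count at P16 (1) became 2 with edgeR and with all 12 libraries in 1 fit, 3 with DESeq2, and 4 with the replicate block and with edgeR with the block, and it ranged from 0 to 3 without single libraries. It was 0, 2 and 0 without both libraries of replicate 1, 2 and 3. Bid, the 1 call at P16, was not called in the fit of 12 libraries, where Bcl2 and Pmaip1 were. The count in controls over time (4) was 5 with edgeR, 6 with DESeq2 and 3 with the 6 control libraries alone, and ranged from 1 to 5 without single libraries. The count in dMF1/2 mice over time (1) became 2 with DESeq2 and with the replicate block, Bcl2 being added each time. It was 0 with the 6 dMF1/2 libraries alone, and 0 to 1 without single libraries. Across days the samples share only a replicate number (correlations -0.0545, -0.0621 and -0.13 in control, 0.0292, 0.208 and -0.162 in dMF1/2 mice), and there the block called 4 members in control mice. The interaction count was 0 throughout. The cause of these shifts was not tested.

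The genes called in all moved more. At P14 they were 7, but 207 with DESeq2, 224 with the replicate block, 245 with edgeR and the block, 11 with all 12 libraries, and 0 to 18 with libraries left out. At P16 they were 582, but 1123 with DESeq2, 1403 with the block, 1439 with edgeR and the block, and 1 to 684 with libraries left out, the 1 being without both replicate 3 libraries. In controls over time they were 1951, but 2021 with edgeR, 2243 with the block, 2580 with DESeq2, 806 with the 6 control libraries and 693 to 1945 with 1 library left out. In dMF1/2 mice they were 778, but 1341 with DESeq2, 322 with 6 libraries and 257 to 678 with 1 left out. For the interaction they were 0, but 7 with DESeq2 and up to 2 with 1 left out.

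No call of a member changed sign. Log2 fold changes near 0 did so when a library was left out. At P14 the ranges were -0.047 to 0.072 for Bak1, -0.271 to 0.032 for Bcl2l11, -0.196 to 0.095 for Pmaip1 and -0.219 to 0.031 for Fgfr2, and without both replicate 3 libraries Bak1 was at -0.016, Bcl2l11 at 0.08 and Pmaip1 at 0.073. At P16 they were -0.049 to 0.054 for Bcl2l1, -0.07 to 0.126 for Bak1 and -0.086 to 0.133 for Fgfr2, and leaving out both libraries of a number gave -0.051 for Bcl2l1 and -0.037 for Bak1 (replicate 1), 0.011 for Bax and 0.14 for Fgfr2 (replicate 2). Over time they were -0.167 to 0.032 for Bcl2l1 and -0.082 to 0.186 for Bbc3 in control mice, and -0.095 to 0.121 for Bbc3 and -0.001 to 0.346 for Pmaip1 in dMF1/2 mice. The Mcl1 to Bcl2l11 ratio at P14 ranged from -0.12 to 0.136. The Bcl2 to Bax ratio kept its sign, at -0.671 to -0.397 at P14 and -1.109 to -0.662 at P16.

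With 3 mice a group, exact tests cannot pass 0.05. Pmaip1 rests on few reads, and only transcripts were measured, not proteins.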
